A study of Homo sapiens with 6 samples.

Results

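NF2, the 3 WWC genes and the upstream kinases of the Hippo pathway with their partners were followed across 6 one-colour Affymetrix arrays of total RNA. The 10 genes were NF2, WWC1, WWC2, WWC3, SAV1, STK3, STK4, LATS1, LATS2 and PTPN14, taken by name from the platform annotation, out of 19775 genes named there, and 45 of the 41091 probe sets that name 1 gene read them. A further 3 probe sets name WWC2 together with CLDN22 and were not used. The not_transfected group held 3 samples of untransfected MDA-MB-231, an established line of invasive breast tumour cells. The wtCopFry group held 3 samples labelled 231wCFry, a stable clone derived from MDA-MB-231 under puromycin after transfection of the wild-type Fry cDNA of the COP rat (10791 base pairs). Fry (furry) is known as a partner of the NDR kinases, close relatives of LATS1 and LATS2. The labels say that this clone was picked because its Fry amount resembled that of MCF10A, a line of mammary epithelial cells. The group is thus 1 clone, and the labels describe no clone with an empty vector. Both groups grew in the same medium to 70% confluence. The design text says that samples of a line varied in passage, and neither separate cultures nor a passage per sample are named, so p-values measure only the spread between these samples, which may be technical.

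The Hippo pathway is a kinase cascade that restrains growth. NF2 (merlin), a FERM-domain protein of the cell cortex, and the WWC proteins, of which WWC1 is also called KIBRA, bring the kinases together at the membrane. STK3 and STK4 (MST2 and MST1), held by the scaffold SAV1, phosphorylate LATS1 and LATS2, which in turn phosphorylate the coactivators YAP and TAZ and keep them out of the nucleus. PTPN14, a tyrosine phosphatase, binds YAP and LATS1 and also limits YAP. LATS2 and NF2 are known as genes that YAP and TAZ themselves induce. MDA-MB-231 is known to carry an inactivating mutation in NF2, a point of background that these arrays do not read.

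Each probe set had a MAS5 signal, in arbitrary units, and the mean after trimming 2% at either end was 150.02 on every array as deposited. The median signal of all probe sets was 10.4 to 12.1. The highest of 27 bacterial control probe sets, taken here as the background level, read 2.5 to 4.9. The wtCopFry arrays went against their labelled origin in marker genes. Of 9 tested epithelial markers 7 fell and 1 rose, with a summed signal of 8740.8 to 9418.4 on the not_transfected arrays and 1732.3 to 1894.7 on the wtCopFry arrays, where KRT19 was not above background. Of 10 tested melanocyte and neural crest markers 9 rose and none fell, with a summed signal of 687 to 739.9 against 7111.3 to 7857.6. SOX10, S100B, MLANA and TYRP1 were not above background on the not_transfected arrays, and TRPM1 was not on the wtCopFry arrays. On the wtCopFry arrays MLANA (mean 35.5), TYR (25.5), TYRP1 (7.0, not tested) and PMEL (5.17, did not pass) were dim. By contrast S100B (1770), MIA (1259) and MITF (1129) were bright there. SOX10 read 0.43 ± 0.32 (SD, n = 3) and 1395 ± 22.3. Of 5 tested fibroblast markers 3 rose and 2 fell (sums of 318.7 to 389.3 and 953 to 1055.1), and of 3 tested endothelial markers 1 rose and 2 fell (182.1 to 288 and 22.9 to 36.6). Leukocyte markers were low in both groups, with sums of at most 33.9, and of 2 tested 1 rose and 1 fell. The 3'-to-5' signal ratio of GAPDH, a sign of RNA quality, was 1.36 to 1.39 and 1.24 to 1.33. The part of these differences in the results below was not tested, and an effect of Fry cannot be told apart from them, since they separate the same samples.

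Of the 45 probe sets, 35 passed the filter on low signal and were tested with limma on log2(signal + 16). At a Benjamini-Hochberg adjusted p under 0.05, 10 were higher and 15 lower in the wtCopFry samples, and 10 did not pass. Over all 32768 tested probe sets the shares were 30.2% higher and 32.2% lower. The 25 called of 35 are therefore to be read against a background of 62.4%, and 7 of the 25 passed the filter only through the group where they were high. Of the 10 that rose, 8 read NF2 and most of these are dim, so that only 4 rose with a filter at the 60th percentile and 3 among probe sets with a mean signal of 100 or more in either group. By gene, each read by whichever of its probe sets had the highest mean, 1 rose (NF2), 5 fell (WWC1, WWC3, SAV1, LATS1 and LATS2) and 3 did not pass (STK3, STK4 and PTPN14). The 6 of 9 called compare with 66.9% of all 13606 genes tested, of which 33.9% rose and 32.9% fell, and the 7 of 9 whose groups did not overlap compare with 73%. The median log2 difference, wtCopFry minus not_transfected, was -0.58 over the 9 tested genes and 0.01 over all genes. In bulk RNA of this kind, fewer cells that express a gene and less of its RNA per cell cannot be told apart.

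**Figure D1:**
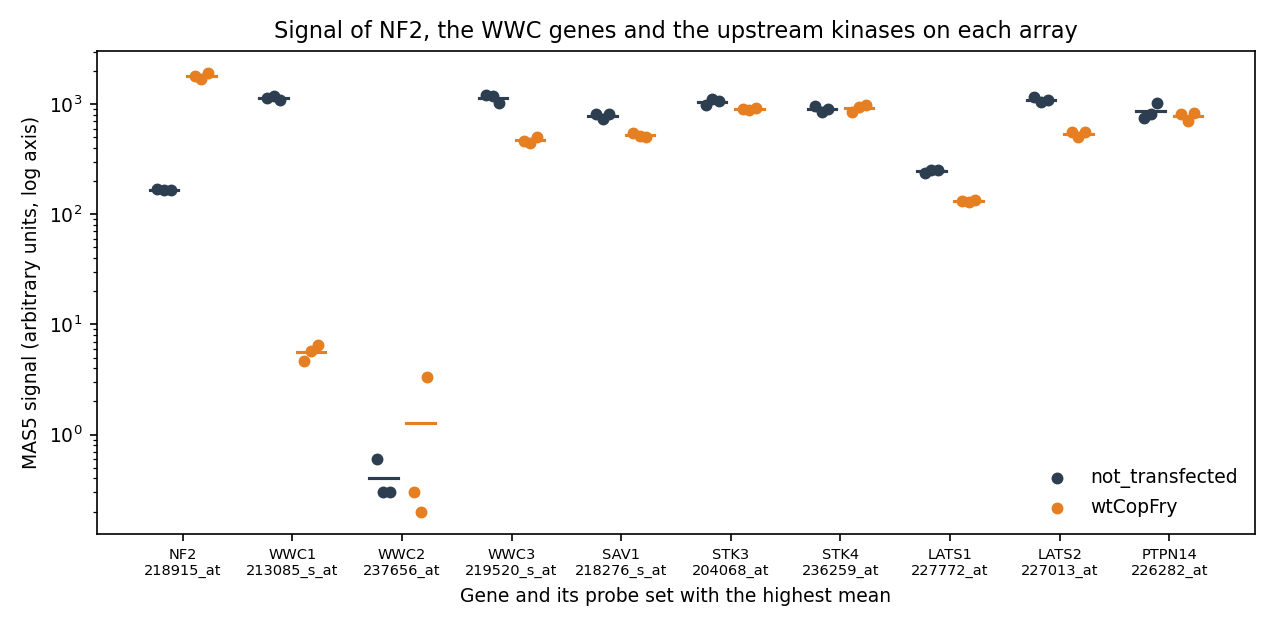
MAS5 signal (log axis, arbitrary units) of each of the 10 genes, read by the brightest of its probe sets. Points are single arrays and bars are group means of 3 arrays. NF2 lies higher on the wtCopFry arrays, WWC1 lies near background there, and the points of STK4 and PTPN14 overlap between groups.

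NF2 and WWC1 moved furthest and in opposite directions, so the sequences before their annotated starts are shown. Each run holds the 250 bases before the RefSeq start (GRCh38.p14), written along the gene's strand, with the GC box GGGCGG or its reverse complement in capitals. The NF2 stretch is chr22:29603383-29603632 (+ strand) and the WWC1 stretch chr5:168291395-168291644 (+ strand).
NF2: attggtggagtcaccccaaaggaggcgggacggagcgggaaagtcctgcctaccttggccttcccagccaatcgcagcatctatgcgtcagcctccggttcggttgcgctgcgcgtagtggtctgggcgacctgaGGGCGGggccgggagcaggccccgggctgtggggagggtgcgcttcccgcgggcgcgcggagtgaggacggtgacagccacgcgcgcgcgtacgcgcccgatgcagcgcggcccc
WWC1: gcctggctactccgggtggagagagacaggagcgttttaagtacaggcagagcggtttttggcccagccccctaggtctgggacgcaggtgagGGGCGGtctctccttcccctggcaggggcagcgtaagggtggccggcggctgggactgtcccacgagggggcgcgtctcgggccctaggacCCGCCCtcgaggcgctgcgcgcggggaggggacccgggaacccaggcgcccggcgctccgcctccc
The NF2 stretch holds 31 CpG dinucleotides and the WWC1 stretch 23, where the median over the 27305 genes with an entry is 11. NF2 has 1 GC box, the binding motif of SP1, starting 115 bases before the start. WWC1 has 2, at 157 and 66 bases. On either strand, with overlapping matches counted, a GC box lay in 42.3% of all such stretches and in 7 of the 9 genes described here that have an entry. The motif GGAATG, bound by TEAD factors, lay in neither printed stretch, in 2 of the 9 (WWC2 and PTPN14) and in 11.9% of all. The E-box CACGTG was found in 1 of the 9 (STK4) and the motif TGACGTCA in 0, against 6.49% and 1.77% of all. LATS1 stood apart from the other 8 with 2 CpG, where these had 23 to 36. Only 1 annotated start per gene was read, and the starts used in these cells are not known. The LATS1 value thus holds for that annotated start alone. A match is a run of letters and was not tested for binding, and no match says nothing about the factor.

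NF2 signal was higher on every wtCopFry array. The probe set 218915_at, which has the highest mean, read 168, 167.7 and 164.8 on the not_transfected arrays and 1797.8, 1693.3 and 1926.9 on the wtCopFry arrays. The groups were far apart, with a spread of 1.77 around 166.8 and of 117 around 1806. The log2 difference was 3.31 (SE 0.09, 95% interval 3.11 to 3.52, adjusted p = 2.59e-09, limma), and 338 of the tested probe sets had a larger rise. All 8 NF2 probe sets were tested and rose without overlap between groups, where 67.2% of all tested probe sets had groups that did not overlap. Of the 8, however, 4 passed the filter only through the wtCopFry group and so had to differ, and their count adds no support. The 204991_s_at probe set went from 6.33 ± 3.07 (SD, n = 3) to 198 ± 16.9, with arrays at 3.5, 5.9 and 9.6 and then 213.7, 180 and 198.9. Here the log2 difference was 3.26, close to that of 218915_at on the same scale. The remaining 6 NF2 probe sets were dimmer, at most 10.7 on any not_transfected array and between 12.5 and 81.5 on the wtCopFry arrays, with log2 differences of 0.73 to 1.92. The probe set 211017_s_at was not above background in the not_transfected samples, and was at least 8.45-fold higher in the wtCopFry samples. The pseudocount of 16 makes such differences of dim probe sets smaller than their signal ratios. The highest adjusted p, 3.47e-04 (210767_at, limma), belonged to 1 of the 4 that had to differ, so it adds no support. Among the other 4 the adjusted p was at most 9.81e-07 (211091_s_at, limma).

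WWC1 was the member with the largest difference. Its probe set 213085_s_at read 1136.7, 1190.9 and 1093.3 on the not_transfected arrays and 4.7, 5.8 and 6.5 on the wtCopFry arrays. The low arrays lay above the bacterial controls but below the median signal of their arrays. On the log2 scale WWC1 fell by 5.74 (SE 0.09, adjusted p = 2.07e-10, limma), and only 27 tested probe sets fell further. The ratio of mean signals was 201, which rests on signals near background. Of 8 WWC1 probe sets 4 were tested and fell, but 3 of these passed the filter only through the not_transfected group, so their count adds no support. Probe sets with a suffix such as _s_at or _x_at were taken here, by the suffix alone, as prone to cross-hybridise, which 241950_at is not. It went from 141.5, 182.4 and 121.7 to 1.3, 3.1 and 5.8, a log2 difference of -3.07. This probe set is 1 of the 3 that passed the filter only through the not_transfected group, so its test adds no support. Signal of 216074_x_at was not above background in the wtCopFry samples, at 0.5, 0.2 and 0.3, and was at least 28.7-fold lower than in the not_transfected samples. The fourth tested probe set, 229180_at, went from 51 ± 9.77 to 3.67 ± 2.70. The other 4 WWC1 probe sets read at most 5.5 on any array and were not tested. The WWC1 difference ran from -5.74 to -1.77 on the log2 scale over the 4 tested probe sets. Their wtCopFry means were 0.33 to 5.67, near or below the background level. The sizes are thus limited by that floor and the pseudocount, and largely follow the not_transfected signal of each probe set.

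WWC3, the X-linked paralog of WWC1, fell by a smaller amount. Its probe set 219520_s_at read 1205.3, 1180.6 and 1013.4 on the not_transfected arrays and 465.9, 442.3 and 497.5 on the wtCopFry arrays. The groups did not overlap, and the log2 difference was -1.24 (SE 0.10, adjusted p = 5.07e-06, limma). The second probe set, 225273_at, went from 244 ± 13.9 (SD, n = 3) to 98.1 ± 10.4, a log2 difference of -1.19. WWC2 could be read by 1 probe set that names it alone, 237656_at, which stood at 0.2 to 3.3 over the 6 arrays and was removed by the filter. It was not above background in either group, so no level or difference of WWC2 is given.

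**Figure D2:**
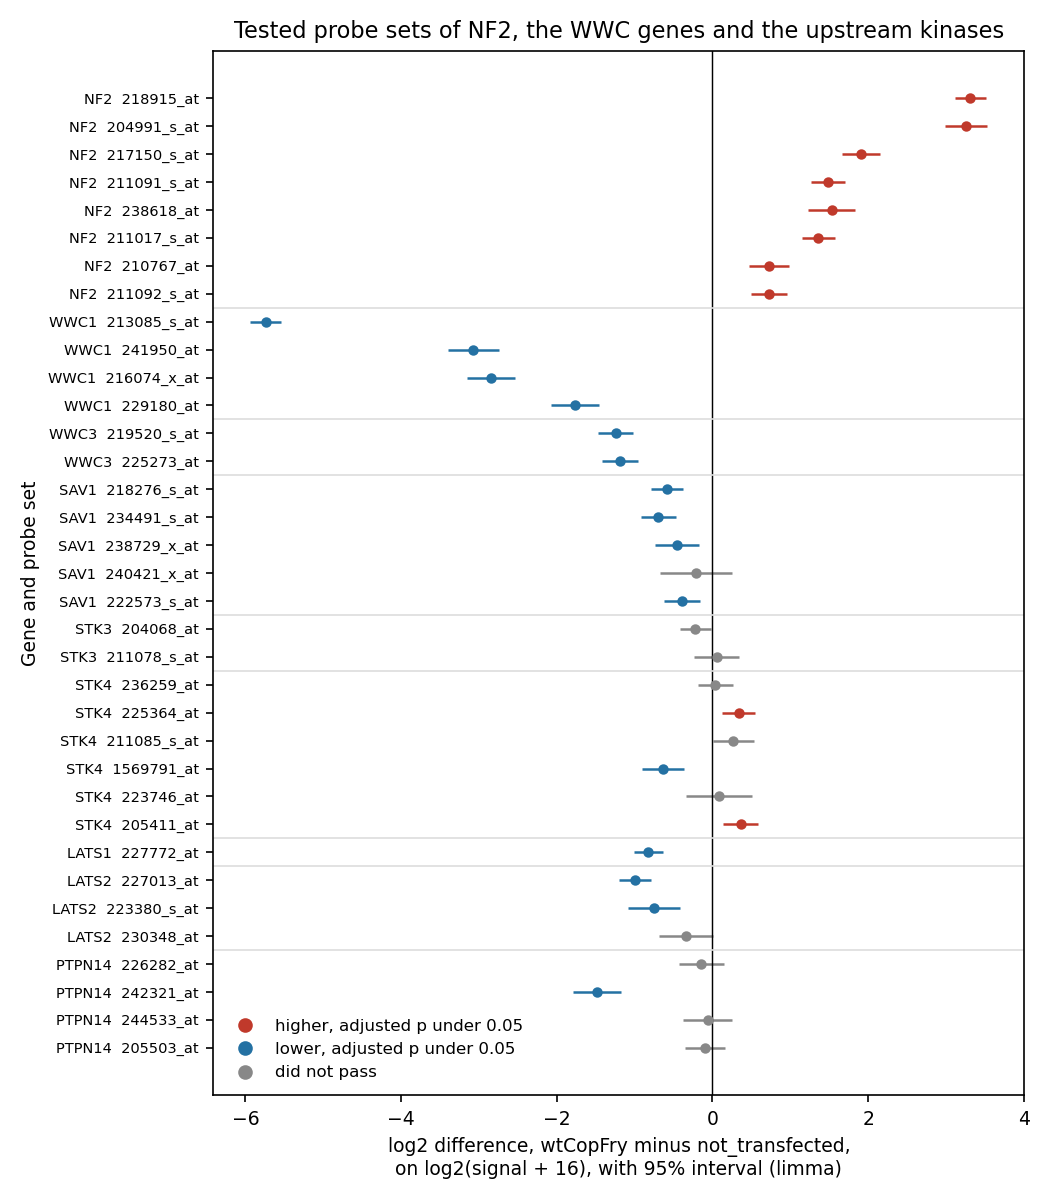
The log2 difference on log2(signal + 16), wtCopFry minus not_transfected, of each of the 35 tested probe sets with its 95% interval from limma, grouped by gene. The 8 NF2 probe sets all lie above 0, the 4 of WWC1 and 2 of WWC3 all lie below 0, and those of STK4 lie on both sides.

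SAV1, the scaffold that binds STK3 and STK4, was lower in the wtCopFry samples. The probe set 218276_s_at read 811, 736.6 and 813.4 and then 543.2, 511.1 and 505.7, with no overlap. The log2 difference was -0.58 (SE 0.09, adjusted p = 3.56e-04, limma). Of the 5 tested SAV1 probe sets 4 fell, by 0.39 to 0.69 on the log2 scale. The fifth, 240421_x_at, overlapped between groups at 121.8 to 189.5 and 94.4 to 173.7 and did not pass (adjusted p = 0.39). All 5 SAV1 probe sets are of the types taken here, by suffix alone, as prone to cross-hybridise, and whether they do was not tested.

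The upstream kinases STK3 and STK4 did not pass by their brightest probe sets. For STK3, 204068_at read 978.6, 1107.5 and 1063.4 and then 893.7, 881.3 and 920.5. The groups did not overlap, but the log2 difference of -0.22 did not pass (95% interval -0.42 to -0.02, adjusted p = 0.057, limma). It passed under 5 of the 16 alternative settings, so it lies at the threshold. The second STK3 probe set, the dim 211078_s_at, read 24.4 ± 4.13 (SD, n = 3) and then 26.1 ± 6.27, with overlapping groups. Its log2 difference was 0.05 (adjusted p = 0.74, limma). With the median signal of both probe sets on each array, STK3 differed by -0.08 (adjusted p = 0.44, limma). For STK4, 236259_at read 955.5, 843.8 and 907.2 and then 849.6, 948.1 and 985.1, overlapping groups with a log2 difference of 0.04 (95% interval -0.18 to 0.26, adjusted p = 0.75). The 6 tested STK4 probe sets did not move together. The probe set 225364_at rose from 682 ± 50.1 (SD, n = 3) to 865 ± 38.6 (log2 difference 0.34, adjusted p = 0.011) and 205411_at from 15.2 ± 1.72 to 24.3 ± 3.52 (0.36, adjusted p = 0.011). By contrast 1569791_at fell from 54.7 ± 9.45 to 29.4 ± 3.72 (-0.63, adjusted p = 0.0012). The remaining 3 did not pass, and which transcripts each probe set reads was not determined.

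Both LATS kinases, which act directly on YAP and TAZ, fell. For LATS1, 227772_at read 235.1, 251.9 and 252.3 on the not_transfected arrays and 131.4, 130.1 and 136 on the wtCopFry arrays. The log2 difference was -0.82 (SE 0.09, adjusted p = 2.61e-05, limma). The other 3 LATS1 probe sets read at most 9.1 and were not tested, so LATS1 rests on 1 probe set. For LATS2, 227013_at read 1149.5, 1038.6 and 1078 and then 557, 500.1 and 561, a log2 difference of -0.99 (SE 0.09, adjusted p = 1.30e-05). A second LATS2 probe set, 223380_s_at, fell as well, from 310 ± 61.1 (SD, n = 3) to 176 ± 23.4. The dim 230348_at, at 12 to 13.3 and 1.1 to 9.8, did not overlap between groups and did not pass (adjusted p = 0.078).

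PTPN14 gave different answers by probe set. The brightest, 226282_at, read 750.7, 819 and 1017.2 and then 808.4, 698.9 and 822.6, with overlapping groups and a log2 difference of -0.14 (95% interval -0.43 to 0.15, adjusted p = 0.37, limma). Signal of 242321_at went from 549.7, 661.8 and 706.6 to 215.5, 257.4 and 183.8, without overlap. That difference was -1.48 on the log2 scale (SE 0.14, adjusted p = 1.23e-05). The other 2 probe sets, 244533_at and 205503_at, overlapped between groups and did not pass. The median of the 4 differences was -0.12 on the log2 scale, so a fall of PTPN14 rests on 242321_at alone.

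Paralogs were compared within each array as the difference of their log2(signal + 16) values, for 3 pairs, with exact two-sided permutation tests that cannot go below p = 0.10 with 3 samples against 3. WWC1 minus WWC3 was 0.01 ± 0.10 (SD, n = 3) in the not_transfected samples and -4.48 ± 0.08 in the wtCopFry samples. This ratio changed by -4.49 (95% interval -4.69 to -4.30, exact permutation p = 0.10, adjusted p = 0.15), so the 2 paralogs changed unequally by more than the spread between arrays, although the test cannot pass. The size of this change is set in part by the pseudocount, since WWC1 read near background on the wtCopFry arrays. It was -6.16 with a pseudocount of 1 and -2.94 with 64, both outside the interval, which covers only the spread between arrays. Without probe sets prone to cross-hybridise the change of this ratio was -1.89. There WWC1 was read by 241950_at, which passed the filter only through the not_transfected group. For LATS1 minus LATS2 the change was 0.17 (95% interval -0.06 to 0.40, exact permutation p = 0.10, adjusted p = 0.15), with groups that did not overlap. STK3 minus STK4 changed by -0.26 (95% interval -0.58 to 0.07, exact permutation p = 0.20, adjusted p = 0.20), with overlapping groups. The intervals of both kinase pairs include 0. Pairs with WWC2 could not be computed.

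To see whether genes beside them on the chromosome differed likewise, the 5 nearest tested genes on either side of each were read. NF2 had 5 neighbours that rose, 2 that fell and 3 that did not pass, with log2 differences of -1.85 to 1.99. The highest of them was THOC5, a subunit of the mRNA export complex THO, which went from a mean of 237 to 988. NIPSNAP1, the nearest tested gene before NF2, rose from 150 ± 34.8 (SD, n = 3) to 311 ± 10.4, and CABP7, the nearest after it, did not pass (-0.27). WWC1 also had neighbours in both directions, 5 up and 4 down, between -1.68 (DOCK2) and 2.12 (HMMR, which encodes a receptor for hyaluronan). The genes on either side of WWC1 both rose, RARS1 by 0.70 and TENM2 by 0.87 on the log2 scale, the latter from signals not above background. DOCK2 was not above background in the wtCopFry samples and was at least 10.5-fold lower there, and LCP2 was not above background in the not_transfected samples and was at least 10.96-fold higher in the wtCopFry samples. The log2 differences of TENM2, DOCK2 and LCP2 are therefore set in part by the pseudocount. Around STK4, 6 neighbours rose and 0 fell (0.01 to 0.87), and around LATS2, 0 rose and 5 fell (-1.11 to 0.14). Of the neighbours of STK4 that rose, ADA, STK4-DT, MATN4 and SLPI were dim, with means of at most 42.3 in either group. Over all tested genes 33.9% rose and 32.9% fell, 66.9% in all, and the counts called around STK4 and LATS2 do not exceed that share. Copy number was not measured in these samples.

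**Figure D3:**
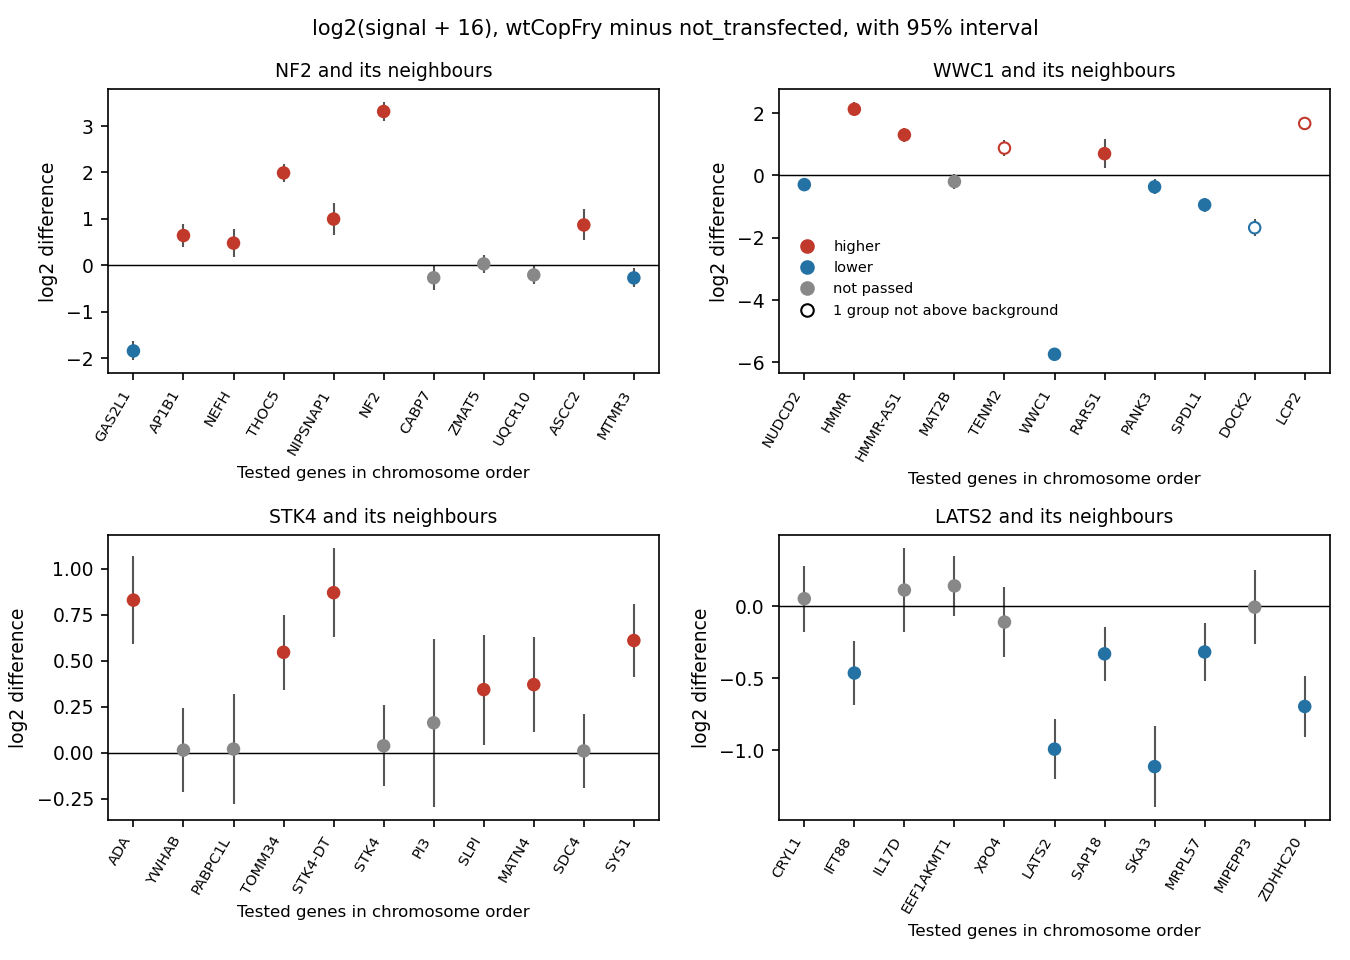
The log2 difference on log2(signal + 16), wtCopFry minus not_transfected, with its 95% interval from limma, of NF2, WWC1, STK4 and LATS2 and the 5 nearest tested genes on either side, in chromosome order and not to distance. Open points (TENM2, DOCK2 and LCP2) have 1 group not above background. Neighbours of NF2 and of WWC1 lie on both sides of 0, and those of STK4 at or above it.

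By the Euclidean distance of centred log2(signal + 16) over the 6 arrays, searched among 9948 other genes, the patterns most like that of NF2 were those of TMEM40 (distance 0.16), TPD52L1 (0.18) and C8orf88 (0.20). TPD52L1, for one, went from 181 ± 13.9 (SD, n = 3) to 2092 ± 163. Most like WWC1 were the cadherin CDH11 (0.19), the ectonucleotide pyrophosphatase ENPP1 (0.23) and KCTD12 (0.28), and all 3 were not above background on the wtCopFry arrays. The 6 points share 2 groups, so the measure mostly reflects the size of the group difference.

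Other genes of the pathway were taken from 7 lists, in which 79 genes outside the 10 had a probe set naming 1 gene and 75 were tested. Of these, 14 rose, 37 fell and 24 did not pass at an adjusted p under 0.05 (limma), where 33.9% and 32.9% of all genes rose and fell. Their median log2 difference was -0.29, against 0.01 over all tested genes. The 9 tested of the 10 genes and these lists thus both held more falls than rises. Among the lists, that of YAP and TAZ targets, which also holds LATS2 and PTPN14, had the most falls, 14 of 21 tested, with 1 rise.

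Kinases that act beside STK3 and STK4 on LATS moved in both directions. Of 7 tested MAP4K and TAO kinases 3 rose and 2 fell. TNIK rose from 101 ± 9.74 (SD, n = 3) to 231 ± 20.1 and MINK1 from 541 ± 23.8 to 716 ± 14.7, while TAOK1 fell from 1003 ± 113 to 555 ± 38.6 and MAP4K4 from 950 ± 138 to 706 ± 37.9. In the STRIPAK complex, a phosphatase assembly that removes phosphate from STK3 and STK4, 4 of 18 tested genes rose and 8 fell. The shares called in both lists are near the 66.9% of all tested genes. CTTNBP2, a striatin-binding protein, was not above background in the not_transfected samples and was at least 26.0-fold higher in the wtCopFry samples (adjusted p = 1.06e-08, limma), and the kinase STK26 rose from 218 ± 9.66 to 738 ± 26.2. STRIP2 fell from 854 ± 119 to 242.5 ± 80.9 and FGFR1OP2 from 290 ± 19.1 to 145 ± 10.7.

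Of 7 tested MOB1 and RASSF genes, adaptors of the kinases, 1 rose and 3 fell, a share called near the 66.9% of all genes. MOB1A, the coactivator of LATS1 and LATS2, fell from 1269.9 ± 147 (SD, n = 3) to 652 ± 36.9 (log2 difference -0.94, adjusted p = 4.84e-05, limma), and RASSF5 from 165 ± 30.3 to 39.5 ± 7.57. RASSF3 rose from 1032 ± 135 to 1458 ± 40.5. Among 16 tested scaffolds of the cortex and the junctions, 3 rose and 7 fell, a share called also near the 66.9%. FAT4, an atypical cadherin, fell from 133 ± 15.8 to 6.53 ± 0.85, and WTIP, a LIM protein that binds LATS, was at least 11.7-fold lower. PATJ, a polarity protein, rose from 24.1 ± 5.82 to 45.8 ± 3.67 and AMOTL1, which binds YAP, from 880 ± 58.7 to 1236 ± 115. Of the ERM proteins, the closest relatives of NF2, EZR fell from 1524 ± 152 to 1055 ± 7.52, and RDX (log2 difference 0.13) and MSN (0.09) did not pass.

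At the end of the cascade, 2 of 7 tested effectors rose and 3 fell. TEAD4 rose by 1.72 on the log2 scale and WWTR1, which encodes TAZ, by 0.75, while TEAD1 fell by 1.08 and TEAD3 by 0.88 (adjusted p at most 2.35e-04, limma). YAP1, which encodes YAP, fell by less (log2 difference -0.29, adjusted p = 0.019, limma). Of 21 tested targets of YAP and TAZ, a list that also holds LATS2 and PTPN14, 1 rose and 14 fell, with a median of -0.55. Both lists are to be read against the 33.9% of all tested genes that rose and the 32.9% that fell. IGFBP3 and ANKRD1 had the smallest p-values among the falls. Signal of IGFBP3 went from 593 ± 62.8 (SD, n = 3) to 2.43 ± 1.62 and that of ANKRD1 from 289 ± 77.3 to 4.03 ± 2.74. Their log2 differences of -5.04 and -3.91 rest on signals near background and are set in part by the pseudocount. ASAP1 was the one that rose (0.27, adjusted p = 0.047, limma).

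**Figure D4:**
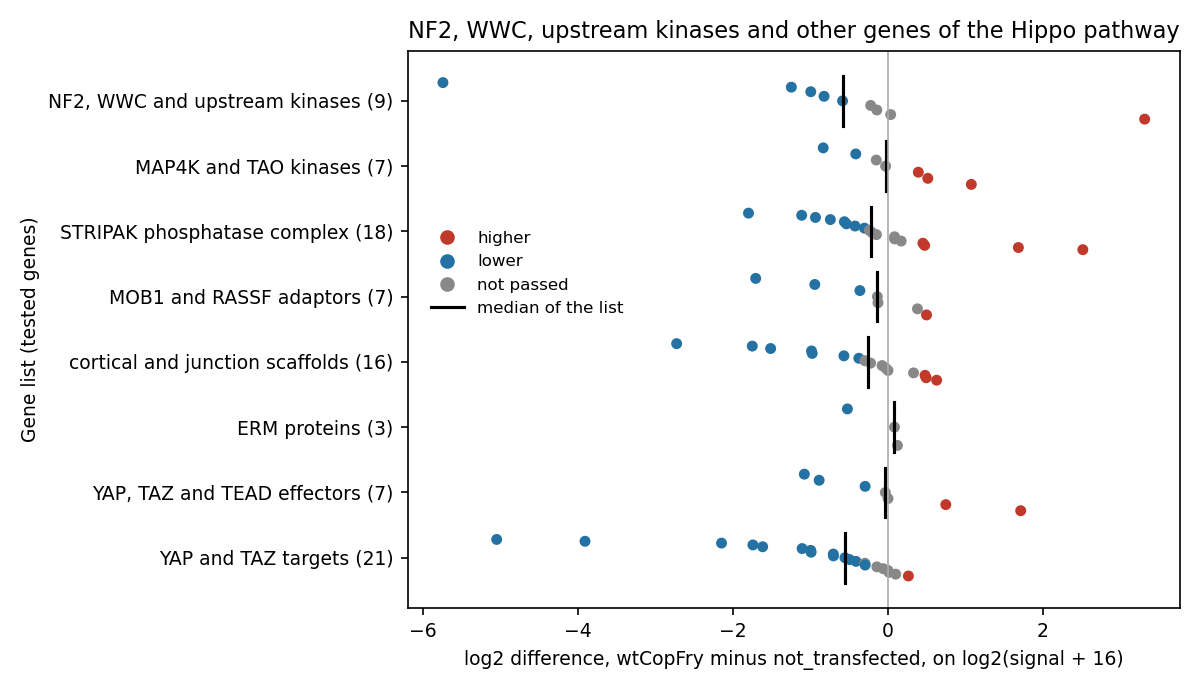
The log2 difference on log2(signal + 16), wtCopFry minus not_transfected, of each tested gene of 8 lists, with the number tested in brackets, and the median of each list as a black bar. The medians run from -0.58 for NF2, the WWC genes and the upstream kinases to 0.09 for the ERM proteins.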

How the data were processed

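The labels' protocols state that 40 ng of total RNA per sample was amplified and labelled with biotin for the arrays. The deposited values are MAS5 signal intensity values on a linear scale, 1 array per sample, made by the authors with the algorithm that the submitters' processing notes name, its version and any genome build not given in the sources used here. Genes were named from the platform annotation, checked against RefSeq (GRCh38.p14), which changed 0 symbols. The 62 control probe sets were left out.

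Intensities were transformed to log2(signal + 16) without further scaling. Probe sets whose mean of these values lay at or above the 40th percentile (signal 5.62) were tested with lmFit and eBayes of limma 3.58.1 (R 4.3.3), over 3 against 3 samples without covariates. A probe set was not above background in a group where all 3 arrays read at or below the highest bacterial control. Bounds ("at least") compare mean log2 signals with that level, or the signal itself where higher. Standard errors and intervals are limma's, and those of paralog ratios come from the pooled spread of the arrays. In a test on simulated data, 87% of changes of 1 and 99% of changes of 2 (log2) were recovered among 32768 probe sets, with 8 false calls. Changes were planted in only a small part of these probe sets, and the rest had no group difference. In the data 62.4% were called, so the simulation checks the procedure and does not give the recovery in this comparison.

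The genes, lists, tests and alternatives were chosen with earlier results of these data known. All 10 genes are named, with the 2 smallest p-values per direction in each other list and, outside this rule, YAP1, RDX and MSN. Neighbours came from the RefSeq gene order. Figures were drawn with matplotlib 3.10.9.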

Additional observations from a re-analysis of the deposited data

How the results depend on the processing

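Counts of calls were recomputed under other settings of pseudocount (1 and 64), filter, scaling, prior and probe set choice, and without each sample. Of 157 alternative values of counts and paralog ratios, 150 stayed within 1.5 times the value reported or kept the sign of a ratio. Without probe sets prone to cross-hybridise, 5 probe sets of the 10 genes rose and 7 fell (of 19 tested), 6052 and 6452 of all probe sets did, and 7 other pathway genes rose, with fewer probe sets tested and none left for SAV1. With a filter at the 60th percentile, 4 probe sets of the 10 genes rose, and among those whose group mean reached 100, a setting chosen after seeing the data, 3 did. Leaving out 1 sample gave 10 to 11 rises and 15 to 16 falls among these probe sets. STK4 did not pass in any setting, and its log2 difference was -0.13 with the median signal of its probe sets on each array, which mixes probe sets of different level (the median of their own differences was 0.18), and ranged from -0.0080 to 0.10 when 1 sample was left out, falling below 0 without the second not_transfected or the third wtCopFry sample. The same median signal took PTPN14 past the threshold (-0.77) as the average of 242321_at and 244533_at. STK3 passed with a pseudocount of 64, a 60th percentile filter, quantile normalization, an intensity trend, and without the first not_transfected sample. The WWC1 log2 difference ranged from -7.43 (pseudocount 1) to -2.83 (median signal over probe sets) and that of NF2 from 1.51 to 3.43. The replicate block gave 11 rises and 15 falls among probe sets and changed no call of the 10 genes. Same-numbered samples deviated with correlations of 0.070, 0.075 and 0.19, so the numbers were not taken as pairs. Signal near background limits WWC1, WWC2 and the dim NF2 probe sets.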

Other observations

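Neighbouring genes of the remaining members also moved in both directions. Around WWC3, 3 of 10 tested neighbours rose and 4 fell, between a log2 difference of -2.28 for the chloride transporter CLCN4 and 4.38 for GPR143, a melanosome receptor that is also on the melanocyte list. Around SAV1, 1 rose and 5 fell, around LATS1, 2 rose and 4 fell, around PTPN14, 1 rose and 5 fell, and around STK3, 2 rose and 2 fell (limma, adjusted p under 0.05). The medians of these groups of 10 lay between -0.48 and -0.07. WWC2, which could not be read itself, had 7 neighbours that fell and 1 that rose. Over all tested genes 33.9% rose and 32.9% fell.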
